A study of Mus musculus with 9 samples.

Results

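Collagen chains were read in RNA sequencing libraries of mouse cardiac endothelium. The chains were the rows whose gene symbol had the form Col, a number, a, a number, with nothing after. This rule found 40 of the 18094 genes in the deposited table. By their textbook classes, 8 were basement membrane chains, 9 were fibrillar chains and 23 were other chains.

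The 9 libraries fell into 3 groups of 3, which were 22-week BPN/3J, 4-week BPH/2J and 22-week BPH/2J. Per the series' design text, the BPH/2J animals were hypertensive and the 22-week BPN/3J animals were normotensive. Endothelial cells were isolated from heart tissue with magnetic microbeads and an autoMACS instrument, and polyA RNA was read as single 100-cycle reads. The labels name no treatment and no allele beyond the strain, and they do not say whether each library came from a separate animal, so p-values measure only the spread between these libraries. Strain and blood pressure cannot be told apart, because each line had 1 blood pressure label. No 4-week BPN/3J group was analysed here, so the age difference within BPH/2J could not be set against one in BPN/3J.

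Collagens are secreted proteins whose chains wind into helices and assemble into fibrils, sheets or filaments outside the cell. Type IV collagen forms the sheet-like network of basement membranes, on which endothelial cells rest, and Col4a1 and Col4a2 encode its main chains in blood vessels. Fibrillar collagens such as types I, III and V give connective tissue its tensile strength and in the heart are made largely by fibroblasts. The other chains include microfibril, fibril-associated and membrane-spanning collagens.

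Promoter stretches of 5 chains are shown because these chains carried the main patterns: Col4a1 and Col4a2 as the most abundant pair, Col15a1 and Col3a1 as chains that were highest at 4 weeks, and Col28a1 as the chain with the most negative difference between the lines. The letters are from RefSeq on GRCm38.p6, in which 32 of the 40 chains had a promoter entry. Each full window of 300 bases ran from 250 bases before the annotated start to 50 after it. Windows were searched on both strands for the TATA box letters TATAAA, the CCAAT box letters and the GC box letters GGGCGG, none of which is part of another, and matches are in capitals.
Col4a1 and Col4a2, chr8:11312801-11312830, plus strand, the 30 bases around both starts: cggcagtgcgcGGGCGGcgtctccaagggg
Col15a1, chr4:47207762-47208011, plus strand, the 250 bases before the start: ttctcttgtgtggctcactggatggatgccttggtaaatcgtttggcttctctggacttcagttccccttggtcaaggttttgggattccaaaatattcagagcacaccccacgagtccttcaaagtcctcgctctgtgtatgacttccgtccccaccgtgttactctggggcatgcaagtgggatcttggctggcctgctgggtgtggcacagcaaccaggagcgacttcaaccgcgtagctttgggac
Col3a1, chr1:45311288-45311537, plus strand, the 250 bases before the start: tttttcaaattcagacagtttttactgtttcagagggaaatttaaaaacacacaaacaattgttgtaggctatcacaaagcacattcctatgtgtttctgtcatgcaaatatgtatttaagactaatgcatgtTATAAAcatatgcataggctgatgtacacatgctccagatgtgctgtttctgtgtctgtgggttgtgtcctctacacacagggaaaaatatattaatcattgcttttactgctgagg
Col28a1, chr6:8192618-8192867, minus strand, the 250 bases before the start: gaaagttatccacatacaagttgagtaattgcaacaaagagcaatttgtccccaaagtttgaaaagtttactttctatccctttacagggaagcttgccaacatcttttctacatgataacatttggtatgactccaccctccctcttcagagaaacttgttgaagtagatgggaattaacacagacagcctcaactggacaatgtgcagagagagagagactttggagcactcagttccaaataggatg

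The annotated starts of Col4a1 (minus strand, base 11312826) and Col4a2 (plus strand, base 11312805) lay 21 bases apart, head to head, and their windows shared 78 bases. The GC box at chr8:11312812-11312817 stood in both windows. Over the full windows, GC content was 74.0% for Col4a1 and 73.7% for Col4a2, against a median of 52.7% over 32851 mouse windows of the same length. The window of Col3a1 held a TATA box that began 117 bases before the start, and its GC content was 37.7%. TATAAA was in 13.6% of the 32851 windows, CCAAT in 37.4% and GGGCGG in 35.7%. The windows of Col15a1 and Col28a1 held none of these letters. The RefSeq start of Col15a1 lay 149 bases before its first start in GENCODE M21, while those of Col3a1 and Col28a1 were the same in both annotations. A match is a string of letters and says nothing about binding.

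Libraries held 28806840 to 32913813 counts. Levels are CPM, counts relative to library size after scaling by trimmed mean of M values (TMM). A gene with a count of 0 may have had up to 3 counts by chance, which equalled 0.0921 to 0.105 CPM in these libraries. Of the 40 chains, 37 passed the low-count filter together with 15277 genes in all, and 33 averaged 1 CPM or more in some group. Endothelial markers were abundant in every library, their 8 genes summing to 8856 to 9266 CPM in BPN/3J, 11181 to 11664 CPM in 4-week BPH/2J and 11806 to 12009 CPM in 22-week BPH/2J. The most abundant of these, Cdh5 (an endothelial cadherin), averaged 2404 ± 41.9, 3180 ± 94.0 and 3048 ± 202 CPM (SD, n = 3) in these groups, and Kdr (a VEGF receptor) averaged 1929 ± 205, 2981 ± 189 and 2952 ± 157 CPM. Transcripts of other cell types were present too, and their values are given below.

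In BPH/2J, collagen chains were mostly lower at 22 weeks than at 4 weeks. By edgeR's quasi-likelihood test, adjusted over all tested genes, 17 of 37 chains (45.9%) fell, against 21.1% of all genes, and 7 (18.9%) rose, against 19.9%. Libraries of the 2 ages had ranges that did not overlap for 24 chains (64.9%), 17 lower and 7 higher, against 51.2% of all genes. The median log2 difference was -0.45 over the chains and 0.01 over all genes. By class, 7 of 9 fibrillar chains fell and none rose, 4 of 8 basement membrane chains fell and 2 rose, and 6 of 20 tested other chains fell and 5 rose. The count of chains that rose dropped to 4 without 4-week replicate 3, without 22-week BPH/2J replicate 1 or 3, or with only the 2 ages in the fit.

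At 22 weeks, BPH/2J exceeded BPN/3J for 10 of 37 chains (27.0%), against 19.8% of all genes, and was lower for 4 (10.8%), against 18.2%. Ranges did not overlap for 14 chains (37.8%), 9 higher and 5 lower, against 55.7% of all genes. The median difference was 0.11 over the chains and 0.02 over all genes. The higher chains were 4 of 8 basement membrane, 3 of 9 fibrillar and 3 of 20 other chains, and the lower ones were 1 basement membrane and 3 other chains. The count of lower chains dropped to 2 without BPN/3J replicate 3. The chains were thus called in this contrast at a rate near that of all genes, with more of the calls on the higher side.

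The 4-week BPH/2J libraries differed from the 22-week BPN/3J libraries in strain and age together, which cannot be told apart in this contrast. Here 20 of 37 chains (54.1%) were higher, against 27.8% of all genes, and 8 (21.6%) were lower, against 25.3%. Ranges did not overlap for 27 chains (73.0%), 20 higher and 7 lower, against 59.2% of all genes. The median difference was 0.77 over the chains and 0.00 over all genes. By class, 7 of 9 fibrillar chains were higher and none lower. Of 8 basement membrane chains 5 were higher and 3 lower, and of 20 tested other chains 8 were higher and 5 lower. Any pair of these 3 comparisons shares a group of libraries, so their values are given side by side and are not independent of each other.

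**Figure D1:**
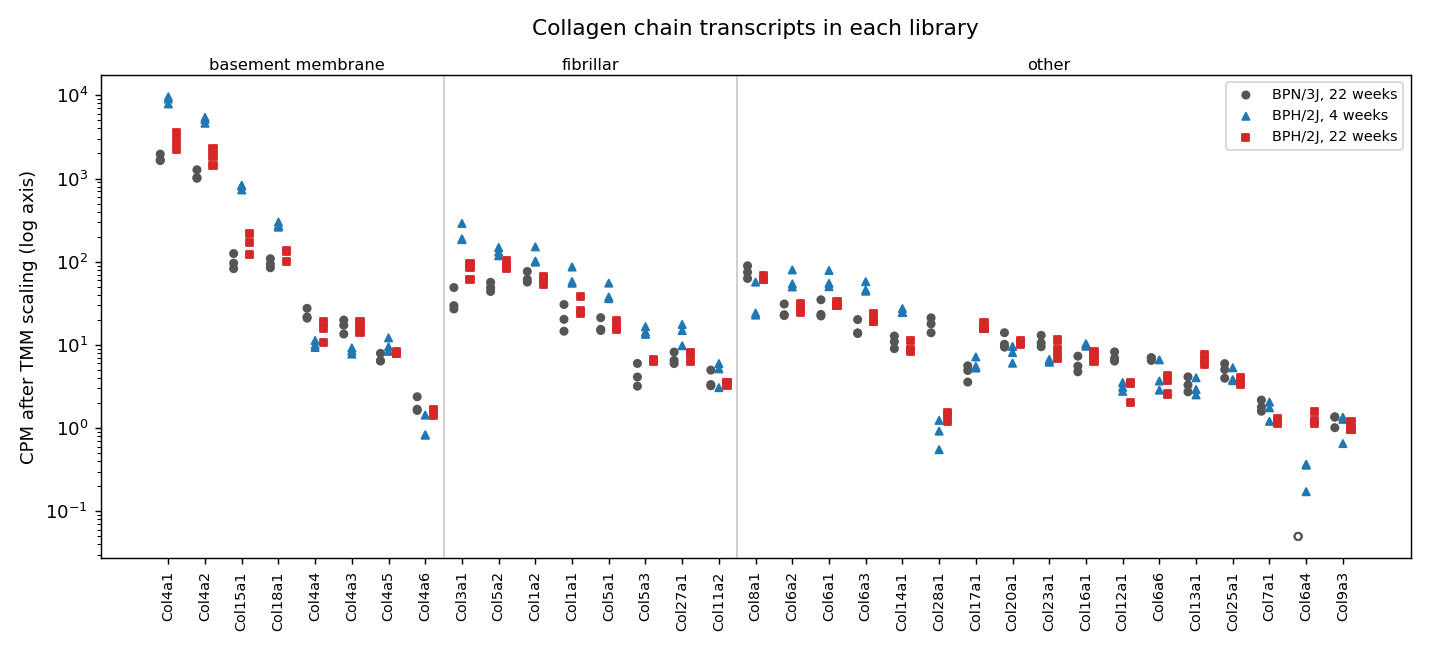
Level of each chain that averaged 1 CPM or more in some group (horizontal axis, by class) in every library (vertical axis, CPM after TMM scaling, log axis), with 3 libraries a group. The 4-week BPH/2J libraries (triangles) are highest for Col4a1, Col4a2, Col15a1 and Col18a1, and the open circles at the bottom mark Col6a4, which had 0 counts in the 3 BPN/3J libraries.

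The basement membrane chains Col4a1 and Col4a2 were the most abundant collagens in all 9 libraries. Col4a1 was at 7875, 9598 and 9028 CPM in the 4-week BPH/2J libraries, at 2247, 3531 and 2768 CPM in the 22-week BPH/2J libraries and at 1645, 1665 and 1964 CPM in the 22-week BPN/3J libraries. Its 3 groups did not overlap, with 4-week BPH/2J highest and BPN/3J lowest. Col4a1 fell with age in BPH/2J by 1.63 ± 0.16 on the log2 scale (SE; adjusted p = 4.44e-05), a 3.10-fold difference. At 22 weeks it was 0.70 ± 0.16 higher in BPH/2J than in BPN/3J (adjusted p = 0.00615). Against BPN/3J, the 4-week libraries were 2.33 ± 0.16 higher (adjusted p = 1.85e-06). Col4a1 alone took 0.878% ± 0.0713 of all counts at 4 weeks (SD, n = 3), against 0.292% ± 0.0659 in 22-week BPH/2J and 0.173% ± 0.0188 in BPN/3J. By CPM it ranked 1 or 2 among all genes in the 4-week libraries, 12 to 24 in 22-week BPH/2J and 35 to 45 in BPN/3J.

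Col4a2, its partner chain, followed the same order. It was at 4617, 5412 and 5134 CPM at 4 weeks, at 1421, 2275 and 1844 CPM in 22-week BPH/2J and at 1009, 1025 and 1273 CPM in BPN/3J, again with no overlap. Col4a2 fell by 1.45 ± 0.16 with age (adjusted p = 9.07e-05) and was 0.74 ± 0.16 higher in BPH/2J at 22 weeks (adjusted p = 0.00482). The printed stretch around their starts holds the 22 exon bases that the annotated transcripts share on opposite strands. Whether the authors' counting used strand is not given in the sources used here, but these bases are few beside transcripts of 7464 and 6619 exon bases. In GENCODE M21, 13 of the 40 chains share exon bases with another gene.

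Col15a1 and Col18a1 encode proteoglycan-like collagens of basement membranes, and a fragment of the Col18a1 product is known as endostatin. Col15a1 was at 809, 829 and 729 CPM at 4 weeks, at 123, 221 and 169 CPM in 22-week BPH/2J and at 82.6, 96.1 and 125 CPM in BPN/3J. Its drop with age, by 2.21 ± 0.20 (adjusted p = 3.02e-05), was 4.62-fold and the most negative among the 37 tested chains. At 22 weeks the lines overlapped, with 1 BPN/3J library above 1 BPH/2J library, and Col15a1 was 0.75 ± 0.20 higher in BPH/2J (adjusted p = 0.0123). Col18a1 was at 299, 273 and 260 CPM at 4 weeks, at 102, 138 and 133 CPM in 22-week BPH/2J and at 84.7, 93.8 and 109 CPM in BPN/3J. It fell with age by 1.16 ± 0.12 (adjusted p = 6.08e-05). Its line difference at 22 weeks, 0.38 ± 0.12 with overlapping ranges (adjusted p = 0.0331), lost its call when any of 4 libraries was left out, namely 22-week BPH/2J replicate 2 (adjusted p = 0.112) or 3 (0.107) or BPN/3J replicate 1 (0.113) or 2 (0.0876).

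Among the minor type IV chains, Col4a3 and Col4a4 were called the other way with age, and Col4a6 was higher with age without a call. Col4a3, Col4a4 and Col4a5 form the network known from kidney glomeruli and lung. Col4a3 was at 9.20, 8.44 and 7.76 CPM at 4 weeks, at 17.2, 14 and 19.2 CPM in 22-week BPH/2J and at 13.5, 17.3 and 19.9 CPM in BPN/3J. It rose with age by 0.99 ± 0.16 (adjusted p = 0.000733), and the lines at 22 weeks overlapped (difference -0.01 ± 0.15, adjusted p = 0.973). In GENCODE M21, Col4a3 shares 563 of its 9967 exon bases with C430014B12Rik on the opposite strand, and reads of the 2 genes cannot be told apart there without strand. Col4a4 was at 11.3, 9.99 and 9.33 CPM at 4 weeks, at 16, 10.7 and 18.9 CPM in 22-week BPH/2J and at 21, 21.7 and 27.5 CPM in BPN/3J. Its mean was lowest at 4 weeks, and BPN/3J lay above both ages of BPH/2J without overlap. It was 1.20 ± 0.19 lower in 4-week BPH/2J than in BPN/3J (adjusted p = 0.000368). Its rise with age in BPH/2J was 0.57 ± 0.19 with overlapping ranges (adjusted p = 0.033) and lost its call without 4-week replicate 2 (adjusted p = 0.0811) or 3 (0.102) or without 22-week BPH/2J replicate 1 (0.0895) or 3 (0.131). Col4a4 was 0.62 ± 0.18 lower in BPH/2J at 22 weeks (adjusted p = 0.0217), a call lost without BPN/3J replicate 3 (adjusted p = 0.0918).

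Col4a5 was called in 1 contrast, 0.53 ± 0.15 higher in 4-week BPH/2J than in BPN/3J (adjusted p = 0.0116), with group means of 10.01 ± 1.95 CPM at 4 weeks, 8.08 ± 0.258 in 22-week BPH/2J and 6.93 ± 0.861 in BPN/3J (SD, n = 3). Col4a6, the partner of Col4a5 in other tissues, averaged 1.03 ± 0.351, 1.58 ± 0.145 and 1.90 ± 0.420 CPM in these groups. It was 0.88 ± 0.26 lower in 4-week BPH/2J than in BPN/3J (adjusted p = 0.0159), and lost this call without 4-week replicate 2 (adjusted p = 0.0582) or 3 (0.0623) or BPN/3J replicate 3 (0.0683). With age in BPH/2J, Col4a6 was 0.62 ± 0.26 higher and not called (adjusted p = 0.0859). Without 4-week replicate 1 that difference was 0.93 and was called (adjusted p = 0.0118).

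**Figure D2:**
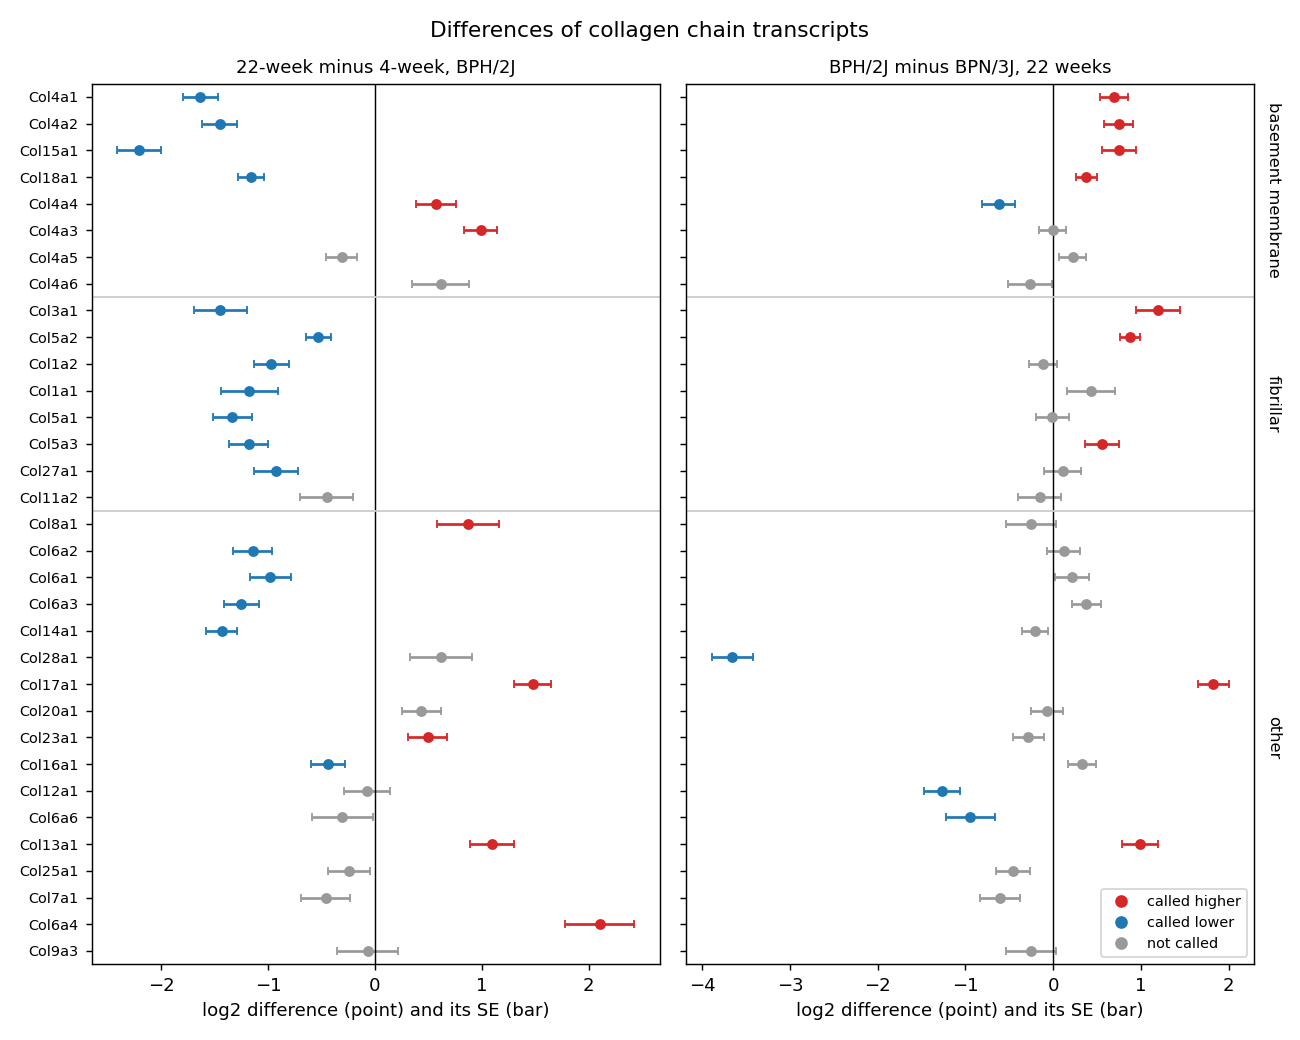
Log2 difference (point) and its standard error (bar) of each chain with age in BPH/2J (left) and between the lines at 22 weeks (right), by class, coloured by call. In the left panel all fibrillar chains shown lie below 0 while Col4a3, Col4a4 and Col4a6 (not called) lie above it. Col6a4 is left out on the right because BPN/3J had no count of it.

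Among the fibrillar chains, Col3a1, Col5a2 and Col5a3 were called higher in BPH/2J than in BPN/3J at 22 weeks. Col3a1, the only chain of type III collagen and abundant in vessel walls, was at 289, 188 and 184 CPM at 4 weeks, at 61.3, 95.5 and 85.4 CPM in 22-week BPH/2J and at 29.7, 27.1 and 48.9 CPM in BPN/3J. Its 3 groups did not overlap. Col3a1 fell with age by 1.45 ± 0.25 (adjusted p = 0.00116) and was 1.20 ± 0.25 higher in BPH/2J at 22 weeks (adjusted p = 0.00419), a 2.29-fold difference. Col5a2, a chain of the type V collagen that takes part in fibril assembly, was at 148, 131 and 118 CPM at 4 weeks, at 83.7, 87.8 and 104 CPM in 22-week BPH/2J and at 43.9, 49.1 and 56.6 CPM in BPN/3J. Its groups did not overlap either. Col5a2 fell by 0.53 ± 0.11 with age (adjusted p = 0.00422) and was 0.88 ± 0.12 higher in BPH/2J at 22 weeks (adjusted p = 0.000257).

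The type I chains were not called between the lines at 22 weeks. Col1a1 was at 86.4, 55.1 and 57.8 CPM at 4 weeks, at 23.8, 38.4 and 26.0 CPM in 22-week BPH/2J and at 20.3, 14.6 and 30.6 CPM in BPN/3J. Col1a2, its partner in type I collagen, was at 151, 98.9 and 102 CPM, at 53.1, 65.6 and 60.9 CPM and at 61.4, 57.0 and 76.4 CPM in the same order. Both were highest at 4 weeks without overlap, and both lines overlapped at 22 weeks. With age Col1a1 fell by 1.18 ± 0.27 (adjusted p = 0.00565) and Col1a2 by 0.97 ± 0.16 (adjusted p = 0.00111). Between the lines at 22 weeks the difference was 0.43 ± 0.27 for Col1a1 (adjusted p = 0.24) and -0.12 ± 0.16 for Col1a2 (adjusted p = 0.601), and the difference between these values and that of Col3a1 was not tested. With the fibroblast marker covariate, Col1a1 was 0.71 higher in BPH/2J and called (adjusted p = 0.0452).

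Of the remaining fibrillar chains, Col5a1, the chain that joins Col5a2 in type V collagen, averaged 43.0 ± 10.7 CPM at 4 weeks, 17.0 ± 2.17 in 22-week BPH/2J and 17.2 ± 3.54 in BPN/3J. It fell with age by 1.33 ± 0.18 (adjusted p = 0.000319) and differed by -0.01 ± 0.19 between the lines (adjusted p = 0.968). Col5a3, the third type V chain, averaged 14.7 ± 1.63, 6.51 ± 0.224 and 4.44 ± 1.43 CPM and fell with age by 1.18 ± 0.18 (adjusted p = 0.000644). Its line difference, 0.55 ± 0.19 (adjusted p = 0.0451), lost its call in 7 of 9 fits that each left out 1 library, all but those without 4-week replicate 1 or BPN/3J replicate 3, and with only the 2 groups in the fit (adjusted p = 0.0546). Over those 7 fits the adjusted p ran from 0.0507 to 0.136. The difference was 0.37 without BPN/3J replicate 2 and 0.83 without BPN/3J replicate 3. Col27a1, a chain of cartilage and developing tissues, averaged 14.1 ± 3.97, 7.43 ± 0.918 and 6.90 ± 1.17 CPM and fell with age by 0.92 ± 0.21 (adjusted p = 0.00505). Col11a2, also known from cartilage, averaged 4.73 ± 1.49, 3.45 ± 0.177 and 3.85 ± 0.980 CPM and was not called in any contrast. Col24a1 stayed under 1 CPM in every group mean and was not called.

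The fibroblast markers went in both directions, and their sum did not follow the group order of the fibrillar chains. A list of 17 fibroblast genes without collagens summed to 516, 374 and 339 CPM in the 4-week BPH/2J libraries, to 511, 420 and 526 CPM in 22-week BPH/2J and to 598, 660 and 644 CPM in BPN/3J. It was thus highest in BPN/3J, where the fibrillar sum per kilobase was lowest. Dcn (decorin), the most abundant of the list, averaged 133 ± 40.01 CPM at 4 weeks, 219 ± 51.5 in 22-week BPH/2J and 347 ± 20.6 in BPN/3J. At 327, 368 and 345 CPM in the BPN/3J libraries, it held a large part of their sums, so the order of the sums leans on this gene. Pi16, also among the abundant members, averaged 72.1 ± 14.4, 76.9 ± 3.76 and 43.8 ± 3.43 CPM. With age 3 of the 17 markers (17.6%) rose and 3 (17.6%) fell, against 19.9% and 21.1% of all genes. Between the lines at 22 weeks 3 (17.6%) were higher and 6 (35.3%) lower in BPH/2J, against 19.8% and 18.2%. In 4-week BPH/2J 4 (23.5%) were higher and 8 (47.1%) lower than in BPN/3J, against 27.8% and 25.3%. Postn (periostin), a matrix gene of activated fibroblasts, was among those that fell with age, by 1.06 ± 0.22 (adjusted p = 0.00342). Postn averaged 62.3 ± 19.1 CPM at 4 weeks, 29.9 ± 4.97 in 22-week BPH/2J and 17.5 ± 4.21 in BPN/3J. Mfap4 averaged 9.32 ± 3.43, 4.11 ± 1.68 and 0.739 ± 0.302 CPM. The means of both had the order of the fibrillar sum, the reverse of that of Dcn, and so did those of Cd248. More markers had the order of Dcn, namely Lum, Abca8a, Scara5, Smoc2, Ogn and Medag, and the remaining ones had neither order. Postn and Mfap4 are named beyond the 2 most abundant members.

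Within the 4-week group, replicate 1 was highest in the fibroblast sum and in the fibrillar sum per kilobase (85.7 CPM per kb, against 60.8 and 60.2 in replicates 2 and 3). Without it, 8 of 9 fibrillar chains fell with age and 18 chains of all classes fell, against 8 that rose. Calls over all genes grew as well in that fit, to 3680 lower and 3703 higher of 15578 genes. With all libraries they were 3218 lower and 3039 higher of 15277. With the mean of the fibroblast markers as a covariate, 7 fibrillar chains were called lower with age. In that fit the chains higher in BPH/2J at 22 weeks went from 10 to 15, and all genes called higher went from 3024 to 3384 of 15277. Because the markers went in both directions, their mean is no measure of fibroblast content. The part of fibroblasts in the collagen differences was not tested. In sorted bulk samples, fewer cells of a type and less RNA per cell cannot be told apart.

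Levels of different genes can be compared per kilobase of deposited gene length. On this scale, the basement membrane chains made up most of the collagen transcripts in every library, with 95.1% ± 1.41 of the summed CPM per kb at 4 weeks, 91.2% ± 1.20 in 22-week BPH/2J and 88.1% ± 0.471 in BPN/3J (SD, n = 3). Col4a1 and Col4a2 alone took 87.9% ± 2.15, 85.1% ± 1.32 and 81.4% ± 0.870. Fibrillar chains took 2.98% ± 0.842, 4.05% ± 0.362 and 4.17% ± 0.436, and the other chains 1.92% ± 0.565, 4.73% ± 0.846 and 7.70% ± 0.553. The summed level of all 40 chains was 2340 ± 165 CPM per kb at 4 weeks, 817 ± 174 in 22-week BPH/2J and 522 ± 63.8 in BPN/3J. The other chains together hardly varied in level, at 44.4 ± 9.94, 37.6 ± 1.48 and 40.1 ± 5.40 CPM per kb with overlapping ranges, and their share was highest in the group where the basement membrane sum was lowest.

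**Figure D3:**
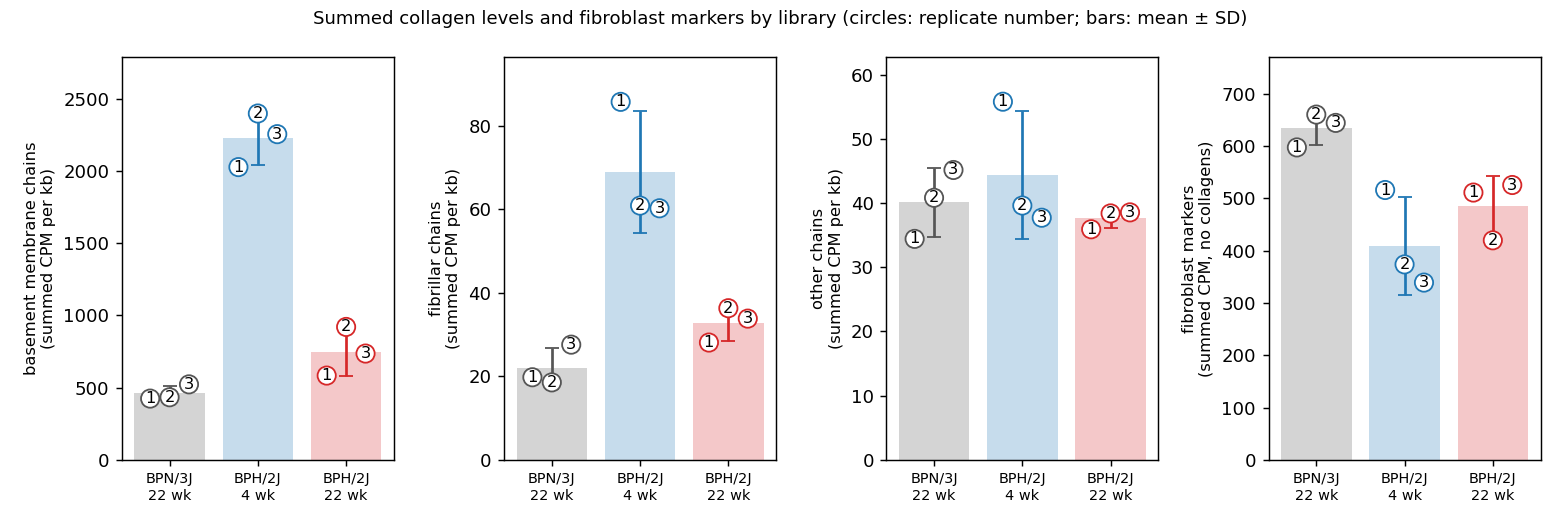
Summed levels of the 3 collagen classes (CPM per kilobase) and of 17 fibroblast markers (CPM) in each library, with circles numbered by replicate and bars for the mean ± SD of 3 libraries. Basement membrane and fibrillar sums are highest at 4 weeks, at means of 2227 and 68.9 CPM per kb. The fibroblast sum, of which Dcn is the largest member, is highest in BPN/3J.

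Ratios within a library compare chains that can share a protein. Col4a1 exceeded Col4a2 per kilobase in every library, by a ratio of 1.70 ± 0.0345 at 4 weeks, 1.5 ± 0.0396 in 22-week BPH/2J and 1.55 ± 0.0478 in BPN/3J. The 4-week libraries lay above all others, in a range from 1.46 to 1.72 over the 9 libraries. As background, the type IV molecule of vessels holds more Col4a1 than Col4a2 chains. Col1a1 to Col1a2 was 1.05 ± 0.0140, 0.90 ± 0.159 and 0.610 ± 0.134, with the highest BPN/3J library (0.742) below all others. Col6a1 to Col6a2 was 1.90 ± 0.0306, 2.13 ± 0.166 and 1.97 ± 0.139, with BPN/3J overlapping both ages of BPH/2J.

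Other ratios set apart chains of different proteins. Col3a1 to Col1a1 was 2.59 ± 0.0866 at 4 weeks, 2.18 ± 0.344 in 22-week BPH/2J and 1.28 ± 0.155 in BPN/3J. The BPN/3J libraries, at 1.14, 1.45 and 1.25, lay below all 6 BPH/2J libraries. Col15a1 to Col18a1 was 3.15 ± 0.194, 1.51 ± 0.235 and 1.16 ± 0.102, so the 4-week libraries stood apart. Col4a3 to Col4a4 was 0.693 ± 0.0135, 0.946 ± 0.129 and 0.602 ± 0.0634, with all 22-week BPH/2J libraries above the rest. These ratios are descriptions and were not tested.

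**Figure D4:**
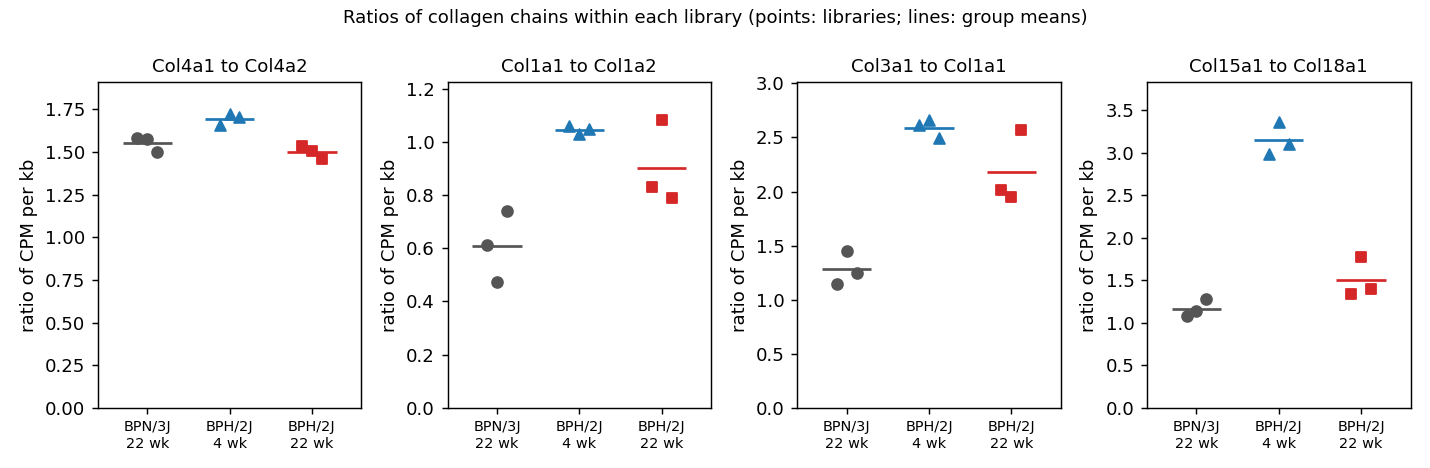
Ratio of CPM per kilobase between pairs of chains in each library (points) with the mean of each group (lines). Col4a1 to Col4a2 stays between 1.46 and 1.72 in all 9 libraries, while Col15a1 to Col18a1 reaches 3.36 at 4 weeks and Col3a1 to Col1a1 is lowest in BPN/3J.

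The other chains held the widest differences between the lines, and they went in both directions. Col28a1, a chain with von Willebrand factor A domains that was described in peripheral nerve, was at 14, 17.9 and 21.2 CPM in BPN/3J. It was at 1.20, 1.45 and 1.55 CPM in 22-week BPH/2J and at 1.24, 0.551 and 0.921 CPM at 4 weeks. Every BPN/3J library was far above every BPH/2J library, whatever the age. Col28a1 was 3.66 ± 0.23 lower in BPH/2J at 22 weeks (adjusted p = 1.88e-06), a 12.6-fold difference, and 4.28 ± 0.25 lower at 4 weeks against BPN/3J (adjusted p = 4.82e-07). It was not called between the BPH/2J ages (0.62 ± 0.29, adjusted p = 0.11). In GENCODE M21 it shares no exon bases with another gene.

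Col6a4, a type VI chain related to Col6a3, had 0 counts in all 3 BPN/3J libraries. It was at 1.23, 1.13 and 1.58 CPM in 22-week BPH/2J and at 0.359, 0.172 and 0.368 CPM at 4 weeks. Against a floor of 3 counts in each BPN/3J library, or 0.104 CPM, it was at least 12.7-fold higher in 22-week BPH/2J (adjusted p = 5.39e-05) and at least 2.89-fold higher at 4 weeks (adjusted p = 0.000685). Within BPH/2J it rose with age by 2.10 ± 0.32 (adjusted p = 0.00124). In GENCODE M21 it shares 162 exon bases with Gm47575 and 127 with Gm36993, both on the opposite strand.

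Of the 4 membrane-spanning chains, 2 were highest in 22-week BPH/2J. Col17a1, known from the hemidesmosomes of skin, was at 15.6, 15.7 and 18.6 CPM there, at 7.18, 5.27 and 5.52 CPM at 4 weeks and at 3.58, 4.93 and 5.61 CPM in BPN/3J. The 4-week and BPN/3J libraries overlapped, and the 22-week BPH/2J libraries lay above all of them. Col17a1 rose with age by 1.48 ± 0.17 (adjusted p = 0.000106) and was 1.82 ± 0.17 higher in BPH/2J at 22 weeks (adjusted p = 3.06e-05). Col13a1, known from neuromuscular junctions, was at 6.74, 5.79 and 7.63 CPM in 22-week BPH/2J, 2.51, 4.03 and 2.92 CPM at 4 weeks and 2.73, 4.13 and 3.30 CPM in BPN/3J. Here too the 22-week BPH/2J libraries lay above all others. It rose with age by 1.09 ± 0.21 (adjusted p = 0.00212) and was 0.99 ± 0.21 higher in BPH/2J at 22 weeks (adjusted p = 0.00409).

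The other 2 membrane-spanning chains did not share that pattern. Col23a1 averaged 6.43 ± 0.247 CPM at 4 weeks, 9.07 ± 2.28 in 22-week BPH/2J and 11 ± 1.81 in BPN/3J. It was 0.78 ± 0.18 lower in 4-week BPH/2J than in BPN/3J (adjusted p = 0.00414). Its rise with age, 0.49 ± 0.18 (adjusted p = 0.0486), was lost in 7 of 9 fits that left out 1 library, all but those without 22-week BPH/2J replicate 2 or BPN/3J replicate 3, and with limma-voom (adjusted p = 0.0722). Over those 7 fits the adjusted p ran from 0.0514 to 0.197, and the difference was 0.29 without 22-week BPH/2J replicate 3. Col25a1, found in the amyloid plaques of the brain, averaged 4.28 ± 0.889, 3.63 ± 0.405 and 5.005 ± 0.992 CPM and was not called. Without BPN/3J replicate 1 it was called 0.60 lower in BPH/2J at 22 weeks (adjusted p = 0.0424).

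The main type VI chains, Col6a1, Col6a2 and Col6a3, form beaded microfilaments near cell surfaces and were highest at 4 weeks. Col6a1 was at 78.5, 54.9 and 50.1 CPM at 4 weeks, at 29.9, 33.2 and 30.0 CPM in 22-week BPH/2J and at 23.2, 22.3 and 34.9 CPM in BPN/3J. Col6a2 averaged 61.2 ± 16.2, 27.7 ± 3.58 and 25.6 ± 4.76 CPM and Col6a3 averaged 49.1 ± 7.33, 20.7 ± 2.90 and 15.95 ± 3.65 CPM. All 3 were above both other groups without overlap at 4 weeks, and their lines overlapped at 22 weeks. With age Col6a1 fell by 0.98 ± 0.19 (adjusted p = 0.00233), Col6a2 by 1.14 ± 0.18 (adjusted p = 0.000791) and Col6a3 by 1.25 ± 0.16 (adjusted p = 0.000202). Col6a6, a chain related to Col6a3, averaged 4.39 ± 1.98, 3.55 ± 0.880 and 6.85 ± 0.290 CPM. It was 0.95 ± 0.28 lower in BPH/2J at 22 weeks (adjusted p = 0.0225), a call lost without 22-week BPH/2J replicate 2 (adjusted p = 0.0767) or 3 (0.0514) or BPN/3J replicate 2 (0.0582) or 3 (0.0621).

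Col8a1, a short chain that forms networks under endothelia, was at 56.9, 24.2 and 22.8 CPM at 4 weeks, at 60.7, 62.0 and 67.2 CPM in 22-week BPH/2J and at 63.0, 89.3 and 74.9 CPM in BPN/3J. Replicate 1 at 4 weeks lay close to the 22-week libraries, while replicates 2 and 3 were under 25 CPM. Col8a1 rose with age by 0.87 ± 0.29 (adjusted p = 0.0346), a call lost in 6 of 9 fits that left out 1 library, all but those without 4-week replicate 1 or BPN/3J replicate 1 or 2. Over those 6 fits the adjusted p ran from 0.0511 to 0.113. Without 4-week replicate 1 the difference was 1.43. Against BPN/3J, the 4-week libraries were 1.13 ± 0.29 lower (adjusted p = 0.00771).

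Fibril-associated collagens bind to the surface of fibrils or bridge them to other matrix. Col14a1 was at 27.4, 24.5 and 24.5 CPM at 4 weeks, at 8.27, 11.3 and 8.73 CPM in 22-week BPH/2J and at 12.8, 9.03 and 10.9 CPM in BPN/3J, and fell with age by 1.43 ± 0.14 (adjusted p = 4.94e-05). Col12a1 was at 2.77, 3.10 and 3.53 CPM at 4 weeks, at 3.50, 3.41 and 2.03 CPM in 22-week BPH/2J and at 6.92, 6.39 and 8.24 CPM in BPN/3J. Both BPH/2J ages lay below BPN/3J without overlap, as for Col28a1, and Col12a1 was 1.27 ± 0.21 lower in BPH/2J at 22 weeks (adjusted p = 0.000939) and 1.19 ± 0.20 lower at 4 weeks against BPN/3J (adjusted p = 0.000651). Col16a1 averaged 10.02 ± 0.350, 7.39 ± 0.992 and 5.88 ± 1.32 CPM and was 0.77 ± 0.16 higher in 4-week BPH/2J than in BPN/3J (adjusted p = 0.00224). Its fall with age by 0.44 ± 0.16 (adjusted p = 0.0455) was lost in 6 of 9 fits that left out 1 library, all but those without 22-week BPH/2J replicate 2 or BPN/3J replicate 1 or 3. Over those 6 fits the adjusted p ran from 0.0615 to 0.168, and upper-quartile scaling (0.0636), library totals (0.0696) and no filter (0.0504) also ended it.

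Col20a1 averaged 7.90 ± 1.78 CPM at 4 weeks, 10.7 ± 0.435 in 22-week BPH/2J and 11.2 ± 2.47 in BPN/3J. Its only call, 0.50 ± 0.18 lower in 4-week BPH/2J than in BPN/3J with overlapping ranges (adjusted p = 0.0384), was lost without 4-week replicate 1 (adjusted p = 0.0996) or 3 (0.0749), without 22-week BPH/2J replicate 1 (0.0543) or 3 (0.0518) or without BPN/3J replicate 3 (0.17, at a difference of -0.31). Col7a1, of the anchoring fibrils of skin, and Col9a3, a cartilage chain, were not called, with means of 1.22 to 1.85 CPM and 1.04 to 1.24 CPM over the groups. Of the 7 chains under 1 CPM in every group, Col26a1 fell with age by 1.69 ± 0.44 (adjusted p = 0.0109) and was 1.30 ± 0.42 higher in 4-week BPH/2J than in BPN/3J (adjusted p = 0.0238). Col9a2 was 2.47 ± 0.56 higher in that last contrast (adjusted p = 0.00383). Both are named after their values were seen. Col24a1 and Col8a2 were tested and not called, and Col10a1, Col22a1 and Col6a5 did not pass the filter.

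Genes for collagen folding and hydroxylation, 20 in all, fell with age in 13 cases (65%, against 21.1% of all genes) and rose in none (against 19.9%). In 4-week BPH/2J, 11 (55%) were higher than in BPN/3J, against 27.8%, and 1 (5%) was lower, against 25.3%. In BPH/2J at 22 weeks, 8 (40%) were higher, against 19.8%, and 4 (20%) were lower, against 18.2%. The 4-week libraries were uneven for some members. Serpinh1 was at 650, 1482 and 1395 CPM and P4ha1 at 97.1, 474 and 354 CPM in 4-week replicates 1, 2 and 3. P4ha2 and Plod2 were also lowest in replicate 1. Others, such as Fkbp10 at 42.6, 35.8 and 38.0 CPM, were highest there. No fit with 1 library left out is given for this list. Sparc, a matrix protein that binds collagen and acts in its deposition, averaged 6218 ± 245 CPM at 4 weeks, 3136 ± 419 in 22-week BPH/2J and 1617 ± 136 in BPN/3J. It fell by 0.99 ± 0.11 with age (adjusted p = 9.82e-05) and was 0.96 ± 0.11 higher in BPH/2J at 22 weeks (adjusted p = 0.000122). Fkbp10, a chaperone of procollagen, averaged 38.8 ± 3.46, 15.3 ± 1.53 and 7.80 ± 0.743 CPM and fell with age by 1.34 ± 0.10 (adjusted p = 1.55e-05). It was 0.97 ± 0.11 higher in BPH/2J at 22 weeks (adjusted p = 9.23e-05).

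Some modifying enzymes went the other way between the lines. Plod2, a lysyl hydroxylase, averaged 76.3 ± 27.7 CPM at 4 weeks, 34.0 ± 2.52 in 22-week BPH/2J and 99.6 ± 7.05 in BPN/3J, and was 1.55 ± 0.22 lower in BPH/2J at 22 weeks (adjusted p = 0.000459). Fkbp14, a further procollagen chaperone, was 1.35 ± 0.11 lower in that contrast (adjusted p = 9.22e-06) and 0.82 ± 0.11 lower in 4-week BPH/2J than in BPN/3J (adjusted p = 9.66e-05).

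Of 14 tested genes for procollagen processing and crosslinking, 1 (7.14%, against 19.9% of all genes) rose and 5 (35.7%, against 21.1%) fell with age. In BPH/2J at 22 weeks 2 (14.3%) were higher and 3 (21.4%) lower, near the 19.8% and 18.2% of all genes. In 4-week BPH/2J 6 (42.9%) were higher and 3 (21.4%) lower than in BPN/3J, against 27.8% and 25.3%. Pxdn (peroxidasin), which crosslinks type IV collagen, averaged 891 ± 65.7 CPM at 4 weeks, 573 ± 71.0 in 22-week BPH/2J and 465 ± 26.5 in BPN/3J. It fell with age by 0.64 ± 0.10 (adjusted p = 0.000564) and was 0.30 ± 0.10 higher in BPH/2J at 22 weeks (adjusted p = 0.0306). Loxl2, a lysyl oxidase of basement membranes, averaged 50.9 ± 4.37, 22.5 ± 0.333 and 50.3 ± 4.64 CPM. It was lowest in 22-week BPH/2J, by 1.17 ± 0.08 against 4 weeks (adjusted p = 1.34e-05) and by 1.16 ± 0.08 against BPN/3J (adjusted p = 4.65e-06). Pcolce2, an enhancer of procollagen cleavage, rose with age by 0.94 ± 0.26 (adjusted p = 0.0154) and was 1.64 ± 0.25 lower in 4-week BPH/2J than in BPN/3J (adjusted p = 0.000348). Among the processing proteases, Tll2 was 1.73 ± 0.35 lower and Tll1 0.54 ± 0.18 higher in BPH/2J at 22 weeks (adjusted p = 0.00319 and 0.038). In the contrast of 4-week BPH/2J with BPN/3J, Tll2 was 1.63 ± 0.34 lower and Bmp1 0.48 ± 0.09 higher (adjusted p = 0.00246 and 0.00108).

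Of 11 tested collagen receptor and uptake genes, 1 (9.09%, against 19.9% of all genes) rose with age. With age 3 (27.3%) fell, near the 21.1% of all genes. In BPH/2J at 22 weeks none was higher (against 19.8%) and 4 (36.4%, against 18.2%) were lower. In 4-week BPH/2J 3 (27.3%) were higher and 5 (45.5%) lower than in BPN/3J, against 27.8% and 25.3%. Itga2, the collagen-binding integrin subunit of platelets and epithelia, averaged 11.1 ± 3.11 CPM at 4 weeks, 3.28 ± 0.560 in 22-week BPH/2J and 2.57 ± 0.587 in BPN/3J, and fell with age by 1.75 ± 0.23 (adjusted p = 0.000259). Itgb1, the shared integrin subunit, fell by 0.36 ± 0.07 (adjusted p = 0.0028). Ddr1, a collagen-binding receptor kinase, rose by 0.73 ± 0.15 (adjusted p = 0.00397). Its relative Ddr2 was 0.67 ± 0.12 lower in BPH/2J at 22 weeks (adjusted p = 0.00185) and 0.53 ± 0.12 lower in 4-week BPH/2J than in BPN/3J (adjusted p = 0.00405). Gpr56, an adhesion receptor for type III collagen, averaged 561 ± 119, 607 ± 53.4 and 1003 ± 38.5 CPM and was 0.72 ± 0.14 lower in BPH/2J at 22 weeks (adjusted p = 0.00231), where its ligand transcript Col3a1 was higher. In the contrast of 4-week BPH/2J with BPN/3J, Itga2 was 2.10 ± 0.24 and Itgb1 0.54 ± 0.07 higher, and Gpr56 was 0.84 ± 0.14 lower (adjusted p = 4.28e-05, 0.000113 and 0.000491).

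Markers of further cell types differed between the groups in several patterns, and their part in the collagen differences was not tested. For comparison, 19.9% of all genes rose and 21.1% fell with age. Between the lines at 22 weeks 19.8% were higher and 18.2% lower in BPH/2J. In 4-week BPH/2J 27.8% were higher and 25.3% lower than in BPN/3J. The 8 macrophage markers all fell with age in BPH/2J, and 7 (87.5%) were lower in BPH/2J than in BPN/3J at 22 weeks. They summed to 393 to 748 CPM at 4 weeks, 200 to 236 CPM in 22-week BPH/2J and 342 to 579 CPM in BPN/3J, with Lyz2 and Csf1r the most abundant. The 10 pericyte and smooth muscle markers, led by Rgs5 and Myh11, summed to 1509 to 1876, 1460 to 1751 and 1221 to 1401 CPM. Of these, 2 (20%) were lower with age, 1 (10%) was higher in BPH/2J at 22 weeks and 3 (30%) were higher in 4-week BPH/2J than in BPN/3J. These shares were near or below those of all genes. The 8 cardiomyocyte markers, led by Myl2 and Myh6, summed to 274 to 451, 377 to 451 and 647 to 814 CPM. Of 7 tested, 5 (71.4%) were lower in BPH/2J at 22 weeks, 1 (14.3%) rose with age and 6 (85.7%) were lower in 4-week BPH/2J than in BPN/3J. Of the 8 endothelial markers, 6 (75%) were higher in BPH/2J at 22 weeks, 3 (37.5%) rose with age and 3 (37.5%) were higher in 4-week BPH/2J than in BPN/3J.

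The 6 endocardial markers, led by Npr3 and Nfatc1, summed to 220 to 272 CPM at 4 weeks, 262 to 496 CPM in 22-week BPH/2J and 318 to 374 CPM in BPN/3J. With age 3 (50%, against 19.9% of all genes) rose and 1 (16.7%, against 21.1%) fell. At 22 weeks 1 (16.7%, against 19.8%) was higher in BPH/2J. In 4-week BPH/2J 1 (16.7%, against 27.8%) was higher and 2 (33.3%, against 25.3%) were lower than in BPN/3J. The 5 lymphatic markers, led by Lyve1 and Mmrn1, summed to 49.96 to 101, 82.4 to 128 and 59.8 to 89.2 CPM and none was called. The 3 mesothelial markers, led by Wt1 and Krt19, summed to 95 to 116, 46.9 to 62.5 and 120 to 131 CPM. Both tested members were lower in 22-week BPH/2J against either group, as were 21.1% of all genes against 4 weeks and 18.2% against BPN/3J. In 4-week BPH/2J 1 (50%, against 25.3%) was lower than in BPN/3J.

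Over the 9 libraries, the non-collagen genes whose log2 CPM followed Col4a1 most closely were Lama4, a laminin chain of vessel basement membranes (Pearson r = 0.998), then Vash1 (0.995), Dpysl3 (0.995), Map4k4 (0.994) and Ppat (0.994). Lama4 averaged 1059 ± 24.3 CPM at 4 weeks, 653 ± 69.0 in 22-week BPH/2J and 539 ± 15.2 in BPN/3J. Those nearest to Col15a1 were Kif2c, a kinesin of dividing cells (0.996), Lama4 (0.995), Vash1 (0.995), Ube2c (0.995) and Apln (0.995), and Kif2c averaged 14.4 ± 2.02, 1.68 ± 0.803 and 0.727 ± 0.222 CPM. Those nearest to Col1a1 were Clca5 (0.986), Memo1 (0.980), Brca2 (0.979), Psrc1 (0.975) and Cd109 (0.972). Those nearest to Col8a1 were Gm15441 (0.993), Fto (0.987), AW554918 (0.982), E130307A14Rik (0.980) and Tcap (0.976). The 9 libraries fall into 3 groups, and the values describe likeness over them and nothing more.

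In the authors' deposited table, at a false discovery rate under 0.05, 12 chains were higher and 4 lower in 22-week BPH/2J than in BPN/3J, 7 were higher and 17 lower with age, and 21 were higher and 9 lower in 4-week BPH/2J than in BPN/3J. All 14, 24 and 28 calls made here in these contrasts had the same direction and call in the authors' deposited table.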

How the data were processed

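Polyadenylated RNA of 9 cardiac endothelium libraries was sequenced, and libraries were grouped by the strain and age in the labels. Tools named in the submitters' processing notes, without settings, were TopHat2 2.0.13 with Bowtie2, featureCounts from Subread, edgeR, FastQC and CASAVA 1.8.2, and the build was mm9. Per the file headers and values, the authors deposited raw counts per gene, CPM values, log2 fold changes, p-values and gene lengths in 1 table. The deposited CPM and the deposited log2 fold changes were not used in the tests, and the authors' false discovery rates only for the comparison of calls. Genes with a total under 10 counts are not in the table.

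Counts were filtered with filterByExpr, scaled by TMM and fitted over all 9 libraries in edgeR 4.0.16 (glmQLFit with the legacy setting, glmQLFTest) under R 4.3.3. P-values are two-sided with Benjamini-Hochberg adjustment over 15277 genes, and a gene was called at an adjusted p under 0.05. The SE is the absolute log2 difference divided by the square root of F. Levels between genes are TMM-scaled CPM divided by the deposited gene length. The code was tested on simulated counts. Intervals and floors cover counting error only, since reads carry no molecular identifiers. Exon overlaps are from GENCODE M21 on GRCm38, a later build than mm9, and coordinates on mm9 were not used.

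The members and gene lists were chosen with earlier results of these data known. Chains that averaged 1 CPM or more in some group are given with values, as are up to 2 called members of each pathway list in each direction (those with the smallest adjusted p) and the 2 most abundant of each marker list. The result of 1 marker list is not reported here. For 4 chains, the 5 genes nearest in pattern are named. Alternatives were other scalings, filters, DESeq2 1.42.0, limma-voom (limma 3.58.1), the fit without the legacy setting, only the 2 groups compared, a fibroblast marker covariate, the replicate block and each library left out.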

Additional observations from a re-analysis of the deposited data

How the results depend on the processing

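Of 99 differences of chains at 1 CPM or more over the 3 contrasts, 63 were called. Of these, 53 kept direction and call under every alternative, 10 lost the call under at least 1, none turned direction, and 18 uncalled ones gained a call. Among these, the fibroblast covariate called Col1a1, Col6a1, Col6a2, Col6a3, Col4a5 (all higher) and Col7a1 (lower) between the lines, and leaving out 4-week replicate 1 called Col28a1 and Col4a6 (higher) and Col11a2 and Col7a1 (lower) with age. Besides the lost calls given with each chain, those of Col4a4 were lost with limma-voom (age, adjusted p = 0.0585), only the 2 groups (age, 0.0533) and the fibroblast covariate (line, 0.0645), Col8a1 (age, 0.0639) and Col20a1 (4-week BPH/2J against BPN/3J, 0.0713) with only the 2 groups, and Col23a1 (age) with only the 2 groups (0.0638) and without the legacy setting (0.0502). Residuals of same-numbered libraries of different groups correlated by -0.152 to 0.0665, and those of differently numbered ones by -0.101 to 0.124. These values gave no sign of pairing by replicate number but, with residuals centred within groups of 3, cannot exclude it. With the replicate block, 10 chains were higher and 5 lower between the lines at 22 weeks, 7 and 16 with age, and 20 and 9 in 4-week BPH/2J against BPN/3J. The block ended the call of Col16a1 with age (adjusted p = 0.0748), called Col25a1 lower between the lines (-0.45, adjusted p = 0.0456) and Col6a6 lower in 4-week BPH/2J against BPN/3J (-0.72, adjusted p = 0.033), and changed no other call of these chains. The chains that rose with age numbered 4 with only the 2 groups in the fit.

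Leaving out 1 library in turn, the chains lower in BPH/2J at 22 weeks numbered 2 (without BPN/3J replicate 3) to 5, and those that rose with age 4 (without 4-week replicate 3 or 22-week BPH/2J replicate 1 or 3) to 8 (without 4-week replicate 1). The median of the other chains was the least stable summary. Between the lines it was -0.14 in the main fit and 0.13 with no filter. It ran from -0.14 to 0.12 over the fits with 1 library left out. With age it was -0.16 in the main fit and ran from -0.32 to -0.047 over those fits. In 4-week BPH/2J against BPN/3J the main fit gave 0.12. It was -0.16 with a filter of 1 CPM in 3 libraries and -0.10 with only the 2 groups. With 1 library left out it ran from 0.12 to 0.49. The cause was not tested.

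Uncalled differences near 0 changed sign. Between the lines at 22 weeks, the fibroblast covariate gave 0.11 for Col1a2, 0.14 for Col8a1, 0.23 for Col5a1, 0.11 for Col4a3, -0.12 for Col27a1 and 0.071 for Col4a6. Col5a1 was 0.0022 with upper-quartile scaling, 0.048 with library totals, 0.0033 with no filter and 0.0019 with limma-voom, and Col4a3 was 0.0068, 0.053, 0.0066 and 0.00052. With 1 library left out, Col1a2 ran from -0.20 to 0.016, Col5a1 from -0.12 to 0.17, Col4a3 from -0.14 to 0.13, Col20a1 from -0.18 to 0.12 and Col11a2 from -0.27 to 0.071. With age, Col12a1 ran from -0.20 to 0.15, Col6a6 from -0.54 to 0.12 and Col9a3 from -0.33 to 0.13. In 4-week BPH/2J against BPN/3J, Col13a1 ran from -0.31 to 0.064, Col7a1 from -0.33 to 0.045 and Col9a3 from -0.37 to 0.079. With 3 libraries a group, levels near 1 CPM limit the precision for Col4a6, Col6a4, Col7a1 and Col9a3.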
